A study of Homo sapiens with 8 samples.

Results

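HK1, HK2, GPI, ALDOA, TPI1, GAPDH, PGK1, ENO1, PKM2 and LDHA encode enzymes that carry glucose to pyruvate and lactate. These 10 genes were taken by symbol from a deposited table of 25918 gene models; where a symbol had several models, the one with the highest mean expression rank was used. PKM2 is the table's older name for PKM, and it was the only one of the 10 symbols with 2 models. The series mapped N6-methyladenosine (m6A) in human cells labelled HepG2, a hepatocarcinoma line, after 4 treatments. The UV cultures received 0.04 J/cm2 of ultraviolet light and 4 h of recovery. The heat shock cultures were held at 43 degrees Celsius for 30 min, and the labels' wording leaves unclear whether a recovery period followed. The HGF cultures received hepatocyte growth factor (HGF/SF, 10 ng/ml) overnight, and the IFNg cultures received interferon gamma (200 ng/ml) overnight. All cultures grew in glucose-rich medium with serum. Each treatment had 1 m6A immunoprecipitation (IP) library and 1 input library, and an untreated culture was not analysed here. Every value below therefore comes from 1 pair of libraries, with no replicate error and no test.

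Glycolysis splits one glucose into a pair of pyruvate molecules and yields ATP and NADH. Hexokinase traps glucose in the cell, aldolase splits the phosphorylated hexose, and the lower enzymes recover ATP before lactate dehydrogenase reduces pyruvate and regenerates NAD+. m6A is a methyl mark placed on adenosines of mRNA, often within the motif GGAC and often near the stop codon, and proteins that read it can change the stability, splicing or translation of a transcript.

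The expression value in the table is the rank of a gene model within its treatment, given here as a percentile (100 is the highest) or as a rank counted from the top (1 is the highest). It holds no amounts, and the depth of the libraries is unknown. The sources used here do not say whether it was taken from the IP or the input, or per transcript length. Models tied at the lowest rank stood at a floor, which was the 45.5 percentile mark with UV, 32.7 with heat shock, 20.4 with HGF and 18.4 with IFNg. A peak is a stretch of transcript where the IP was enriched; the table gives its position in nucleotides (nt) from the transcript start, its exon, a segment label and the authors' score, whose lowest value was 2 and whose scale is not stated. The segment labels are TxStart (near the transcript start), UTR5, CDS, AroundStop and UTR3.

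The labelled cell type was checked against liver markers, and they went against it. Of 8 hepatocyte and HepG2 markers, 7 stayed under the 60th percentile in every treatment, and the highest value among those 7 was 57.6. ALB (albumin) stood at the floor of 45.5 in the UV cultures, at 57.6 with heat shock, 24.9 with HGF and 22.3 with IFNg. AFP, a defining product of HepG2, stood at the floor after UV, heat shock and HGF, and at 22.4 after IFNg. TTR was the exception, at 76.1, 71.5, 43.0 and 42.0. KRT7, a keratin of bile duct epithelium, stood between 99.2 and 99.8. Of 4 blood cell markers 1 passed the 60th percentile (HBB, 60.9 with UV), and of 5 fibroblast and endothelial markers COL1A1 and DCN did. In such bulk RNA, fewer cells of a type and less RNA per cell cannot be told apart. The cultures are called by their treatments below.

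The sequences nearest to the peaks are shown first, since m6A sits in short motifs. Each deposited model was matched to a GENCODE 29 transcript with the same internal exons, and GGAC was searched on the transcript's own strand within 50 nt of each peak. Of the 27 peak windows with sequence, 9 held GGAC (33.3%), against 28.9% of 446644 windows of the same length tiled over 10695 coding transcripts and 36.3% of 234 windows tiled over the 8 member transcripts with peaks. That share is near the background, so the motifs show where such letters lie and nothing about the peaks. The longer motif GGACT, which contains GGAC, was in 5 windows (18.5%), against 8.86% of the tiled coding windows and 13.7% of those over the member transcripts. The PKM2 window at 2180 was counted once for UV and once for heat shock, so the 5 are not separate windows. Nothing about the peaks is read from the GGACT share either. The sites below are the GGAC nearest to each peak, 28 nt each in GRCh38 coordinates and 5′ to 3′ on the transcript strand, with GGAC in capitals:
HK1 UV peak, chr10:69318889-69318916, + strand: cagggctgcggaGGACcgaccgtcccca
HK2 IFNg peak, chr2:74891043-74891070, + strand: gcttggcagagaGGACcccactGGACtg
GPI UV peak, chr19:34400107-34400134, + strand: ctgcatgttcctGGACaccacccagagc
PKM2 heat shock peak, chr15:72199455-72199482, - strand: cctgctctagtgGGACagcccagagcct
PKM2 UV and heat shock peaks, chr15:72199293-72199320, - strand: tggatgcccagaGGACtcccaaccctgg
LDHA UV peak, chr11:18405483-18405510, + strand: tcctgggctattGGACtctctgtagcag
In the second PKM2 site the motif's adenosine lay 1 nt after the deposited peak position, which UV and heat shock share at 2180. In LDHA it lay 3 nt after the peak at 982. In the HK2, GPI and other PKM2 sites it lay 24 nt after, 34 nt after and 33 nt before the peak. In HK1 it lay 25 nt before the peak. The UTR5 peaks of PKM2 also had a GGAC in their windows, whose site crosses a splice junction and is not printed.

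The 10 genes ranked high in every treatment, except for the hexokinases. Their median percentile was 99.2 in the UV cultures, 98.8 with heat shock, 99.6 with HGF and 99.4 with IFNg. All 10 passed a filter of percentile 60 in any treatment, as 12624 models did, and the median over those models was 75.6 in each treatment. ENO1 was the highest of the 10 after UV, heat shock and IFNg, PKM2 was the highest after HGF, and HK1 and HK2 were the lowest in all 4. With 1 value per treatment it cannot be said whether neighbours in that order differ. The plot of ranks by gene shows the order and the spread between treatments.

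**Figure D1:**
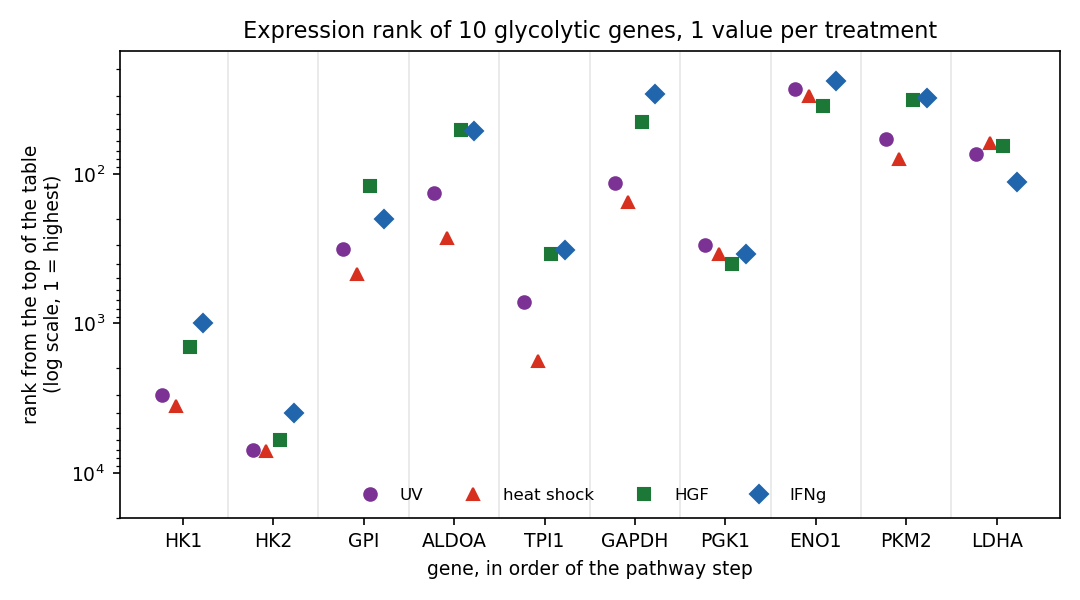
Rank of each glycolytic gene counted from the top of the table (log axis, 1 is the highest) in each treatment, with 1 point per treatment and no error bars because each treatment has 1 value. HK1 and HK2 rank lowest, between 987 and 7122, ENO1 stays between 24 and 35, and the heat shock value of TPI1 (1772) stands apart from its other 3 (321 to 725).

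HK1 phosphorylates glucose in most tissues. Its model (iduc001jpl.2) lies on chromosome 10, 70748609 to 70831643, in the deposited coordinates, whose build is not given in the sources used here; starts are counted from 1. HK1 stood at percentile 88.4 in the UV cultures, 86.3 with heat shock, 94.4 with HGF and 96.2 with IFNg. The HGF and IFNg values were both above the UV and heat shock values, with no overlap. HK1 had 1 peak in all, after UV, at position 82 in exon 1 (TxStart, score 3.71), 20 nt before the start codon of the matched transcript.

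HK2 is the hexokinase that insulin and hypoxia are known to induce, and it binds mitochondria. Its model (iduc002snd.1) lies on chromosome 2, 74913290 to 74973989. HK2 stood at 73.0 in the UV cultures, 72.5 with heat shock, 76.6 with HGF and 84.5 with IFNg. IFNg was the highest, 7.96 points above the nearest other treatment, which was the largest such gap in points of any of the 10 genes. Genes ranked lower have more room to differ in points. As rank from the top the HK2 gap was 1.51-fold, less than the 2.44-fold of TPI1 after heat shock. HK2 was the lowest ranked of the 10 and had the most peaks, 8 over the 4 treatments. Among the 2750 models with a mean percentile from 70 to 80, the median was 3 peaks and 13.6% had 8 or more.

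The HK2 peaks lay at both ends of the transcript. In its long exon 1 (1989 nt), a UTR5 peak stood at 1178 in the UV cultures (score 5.30), at 1175 with heat shock (score 3.45) and at 1180 with HGF (score 2.62), about 750 nt before the start codon. No IFNg peak was listed there. The position of the UTR5 peak lies 147 to 152 nt upstream of where the matched GENCODE transcript begins, so its sequence is not shown. Heat shock alone had a second UTR5 peak at 1499 (score 2.94). In exon 18, the last one, UV and heat shock shared a UTR3 peak, at 5082 with a score of 4.32 after UV and at 5077 with a score of 2.67 after heat shock. UV alone had a further UTR3 peak at 5823 (score 3.78). The only IFNg peak of HK2 lay at 4772 (AroundStop, score 4.86), 92 nt after the stop codon, and its score exceeded 94.4% of all IFNg scores. The treatment with the highest HK2 rank thus had 1 peak at a place where the other 3 had none.

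GPI turns glucose 6-phosphate into fructose 6-phosphate. Its model (iduc002nvg.1) lies on chromosome 19, 39547909 to 39583076. GPI ranked 320 from the top in the UV cultures, 471 with heat shock, 120 with HGF and 201 with IFNg. HGF and IFNg both ranked nearer the top than UV and heat shock. Its peaks were AroundStop in exon 18, at 1831 after UV (score 4.80) and at 1815 after heat shock (score 3.13), 51 and 35 nt after the stop codon. Neither HGF nor IFNg had a peak in GPI, although GPI ranked higher in both.

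ALDOA, the aldolase of muscle and most cultured cells, had no listed peak in any treatment. Its model (iduc002dvz.1) lies on chromosome 16, 29983101 to 29989236. ALDOA ranked 135 in the UV cultures, 268 with heat shock, 51 with HGF and 52 with IFNg. The heat shock value was 1.99-fold farther from the top than the nearest other treatment, just short of the 2-fold threshold used below. GAPDH, which oxidises glyceraldehyde 3-phosphate and is widely used as a loading control, had no listed peak either. Its model (iduc001qop.1) lies on chromosome 12, 6513918 to 6517797. GAPDH ranked 115 in the UV cultures, 154 with heat shock, 45 with HGF and 29 with IFNg. GAPDH has 62 pseudogenes named in GENCODE 29, so reads shared with them make its rank and its peak calls uncertain. The same holds to a lesser degree for LDHA (6 named pseudogenes), PKM2 (5), TPI1 (4), ENO1 (4), ALDOA (2), PGK1 (1) and HK2 (1). No peak in any treatment was the state of 20.8% of the 2206 models whose mean percentile was 90 or more, and of 49 of the 187 models (26.2%) with a mean of 99 or more.

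TPI1 interconverts the triose phosphates. Its model (iduc001qrk.1) lies on chromosome 12, 6846967 to 6850253. TPI1 ranked 725 in the UV cultures, 1772 with heat shock, 346 with HGF and 321 with IFNg. The heat shock value lay 2.44-fold farther from the top than the nearest other treatment, a difference of -4.04 percentile points. TPI1 had an AroundStop peak after IFNg at 871 (score 2.17), 96 nt after the stop codon, and a UTR3 peak after heat shock at 1075 (score 2.66), both in exon 7, the last one. These were 2 separate positions, each seen in 1 treatment and with a low score.

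PGK1 makes the first ATP of the lower pathway. Its model (iduc004ecz.2) lies on chromosome X, 77246322 to 77268980. PGK1 ranked 301 in the UV cultures, 345 with heat shock, 403 with HGF and 346 with IFNg, and it was the only one of the 10 with both HGF and IFNg below both UV and heat shock. The gap between heat shock and IFNg was 1 place. PGK1 had an AroundStop peak after heat shock at 1351 in exon 10 (score 2.60), 75 nt before the end of the stop codon, and a UTR3 peak after IFNg at 1778 in exon 11 (score 4.35), 352 nt after it.

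ENO1 (enolase) makes phosphoenolpyruvate. Its model (iduc001apj.1) lies on chromosome 1, 8843650 to 8861367, on the minus strand. ENO1 ranked 27 in the UV cultures, 30 with heat shock, 35 with HGF and 24 with IFNg, so its 4 values stayed within 11 places of each other. It had a TxStart peak in exon 1 in 3 treatments, at 105 in the UV cultures (score 4.43), at 100 with heat shock (score 3.92) and at 106 with HGF (score 3.04). These positions lie 46 to 52 nt before the start codon, and none had GGAC within 50 nt. ENO1 also had 3 peaks seen in 1 treatment each. They were a CDS peak in exon 4 at 381 after IFNg (score 2.15), an AroundStop peak at 1506 after UV (score 2.03) and a UTR3 peak at 1753 after HGF (score 2.42), all with scores near the lowest listed.

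PKM2 forms pyruvate, the last ATP-making step. Its model (iduc002aty.1) lies on chromosome 15, 70278424 to 70310738, on the minus strand. PKM2 ranked 58 in the UV cultures, 79 with heat shock, 32 with HGF and 31 with IFNg. Its peaks came from UV and heat shock alone. In exon 1 a UTR5 peak stood at 214 after UV (score 2.37) and at 200 after heat shock (score 2.23). In exon 11, the last one, a UTR3 peak stood at 2180 in both, with a score of 4.92 after UV and of 2.57 after heat shock, 343 nt after the stop codon. Heat shock also had a UTR3 peak at 2052 (score 2.21). The other PKM2 model (iduc002atr.1) shares the last exon of 728 nt. There the last-exon peaks were labelled AroundStop, at 843 after UV (score 3.84), 843 after heat shock (score 2.80) and 710 after heat shock (score 2.23). The spacing of the heat shock peaks differed slightly between the models. The position, segment label and score of the last-exon peaks therefore depended on which model was read.

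LDHA reduces pyruvate to lactate. Its model (iduc001mok.2) lies on chromosome 11, 18372558 to 18385974. LDHA ranked 74 in the UV cultures, 62 with heat shock, 65 with HGF and 114 with IFNg. IFNg gave the lowest LDHA rank, 1.54-fold farther from the top than the nearest other treatment. Its peaks too came from UV and heat shock alone. A UTR5 peak stood at 205 in exon 2 after UV (score 2.47) and at 201 in exon 1 after heat shock (score 4.28), on either side of the first splice junction and 22 and 26 nt before the start codon. UV alone had a CDS peak at 982 in exon 7 (score 2.40), and heat shock alone had a UTR3 peak at 1503 in exon 8 (score 2.49). LDHA was the only gene of the 10 with a shared peak that scored higher after heat shock than after UV.

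**Figure D2:**
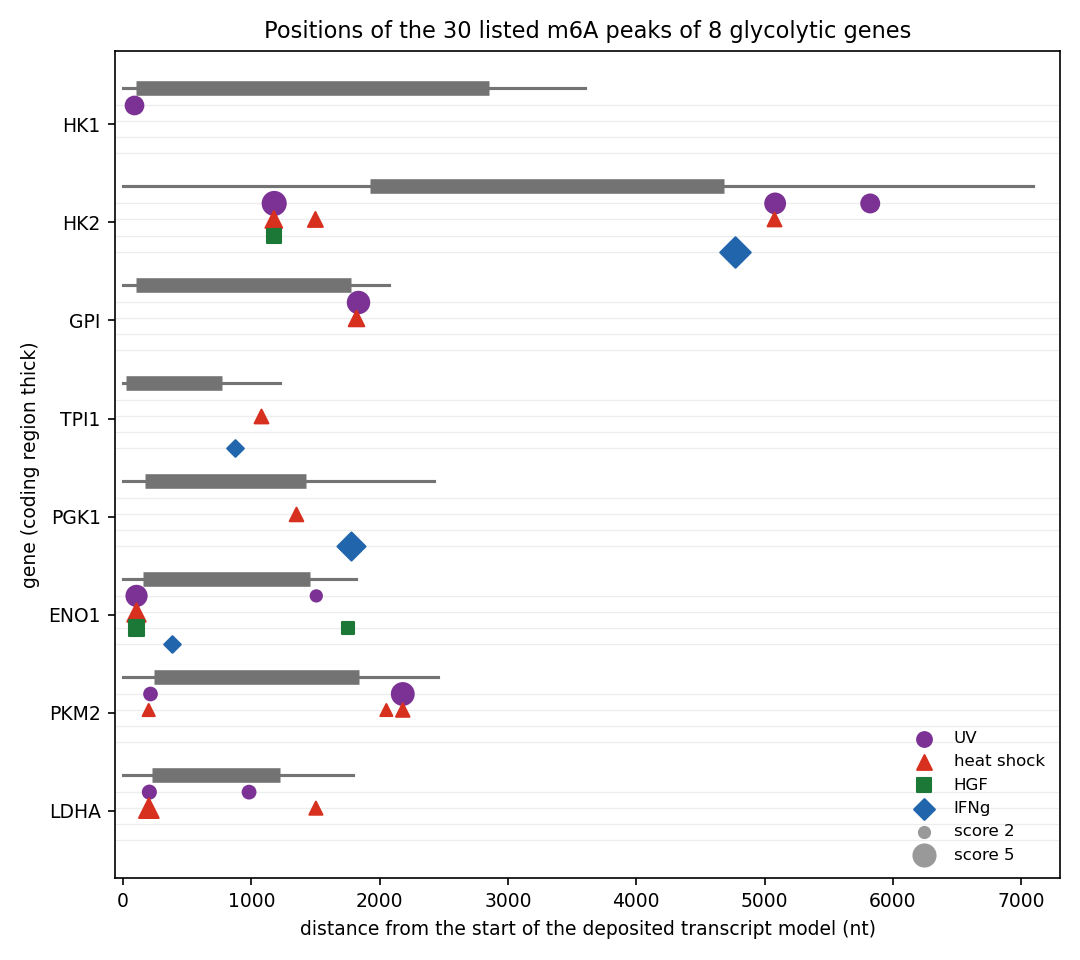
Positions of the 30 listed peaks of 8 genes along the deposited transcript models (x axis, nt from the transcript start), with 1 row per treatment under each gene, the coding region drawn thick and the symbol area growing with the authors' score. ALDOA and GAPDH had no peak and are not drawn. Most peaks lie outside the coding region, and those of PKM2, GPI and LDHA come from UV and heat shock alone.

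None of the 10 genes ranked 10 points or more from all other 3 treatments in any treatment. Of the 12624 models past the filter, 1.93% ranked that far above after UV and 2.17% that far below. For heat shock the shares were 2.87% above and 3.98% below, for HGF 1.57% above and 1.39% below, and for IFNg 3.39% above and 3.02% below. Genes near the top have no room to stand 10 points higher and can differ by that much only downwards, so a 2-fold difference in rank from the top was also used. By that rule 1 gene, TPI1, stood apart, farther from the top after heat shock, against 1.06% of the models past the filter and 3.45% of those whose mean percentile was 90 or more. None of the 10 stood apart in the other 7 cases, whose shares of models past the filter were 0.562% nearer and 0.238% farther for UV, 0.816% nearer for heat shock, 0.602% nearer and 0.349% farther for HGF, and 2.29% nearer and 0.784% farther for IFNg. The count of 1 in 10 is too small to be set apart from either share.

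HGF and IFNg both ranked above both UV and heat shock in 7 of the 10 genes, namely HK1, HK2, GPI, ALDOA, TPI1, GAPDH and PKM2. Of all models past the filter 30.9% did so, and of those whose mean percentile was 90 or more 33.7%. PGK1 went the other way, and ENO1 and LDHA overlapped. The median shift of the 10 genes, each treatment minus the median of the other 3, was -0.30 points with UV, -0.63 with heat shock, 0.30 with HGF and 0.33 with IFNg. Over all models past the filter it was 0.24, 0.45, -0.24 and -0.18 points.

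Base composition moved with this pattern across the table. In the models of the lowest GC quartile (up to 41.8%), the mean of UV and heat shock exceeded that of HGF and IFNg by a median of 8.69 points, and in those of the highest (from 56.5%) it was lower, at -9.54 points. PGK1 (43.3%) and LDHA (44.0%) had the lowest GC content of the 10 genes. Their last exons are 1038 and 735 nt in the deposited models, against 3507 and 1309 nt in the matched GENCODE transcripts. Their GC content may therefore differ from that of the ranked models. The median GC content of the 10 genes was 53.0%. Among the 1357 models within 2 points of that median, 44.1% had HGF and IFNg both above. After each treatment's percentiles were centred within 40 bins of GC content, 4 of the 10 genes had HGF and IFNg both above, namely HK1, HK2, PGK1 and LDHA, and the median shifts changed sign to 2.24 points with UV, 3.68 with heat shock, -2.24 with HGF and -3.88 with IFNg. For genes near the top this correction mostly returns the distance to the median of their GC bin. GAPDH, whose 4 percentiles lay within 0.482 points of each other, stood 26.5 points above its bin's median with UV, 31.6 with heat shock, 21.8 with HGF and 19.7 with IFNg. No direction of the group is therefore read from the corrected shifts. HK1 and HK2 had HGF and IFNg above both before and after the correction, and the part of GC content in their order was not tested.

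Fewer of the 10 genes carried a peak after HGF and IFNg than after UV and heat shock, and the table as a whole had fewer peaks there too. A peak was listed for 6 of the 10 in the UV cultures, 7 with heat shock, 2 with HGF and 4 with IFNg. The 10 genes had 11, 12, 3 and 4 peaks in these treatments, and the whole table had 13307, 9803, 9111 and 5280. Among members at the 90th percentile or above, 4 of 8 had a peak after UV, against 67.9% of all models at that rank. After heat shock it was 6 of 8, against 56.5%. After HGF it was 1 of 9, against 49.1%, and after IFNg 3 of 9, against 38.2%. With 8 or 9 genes at that rank, these counts show nothing particular to the members. They also depended on weak peaks: with scores of 3 or more, 5 of the 10 genes had a peak after UV and 4 after heat shock, and with scores of 4 or more, 4 after UV and 1 after heat shock. The part that sequencing depth played in these counts was not tested.

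**Figure D3:**
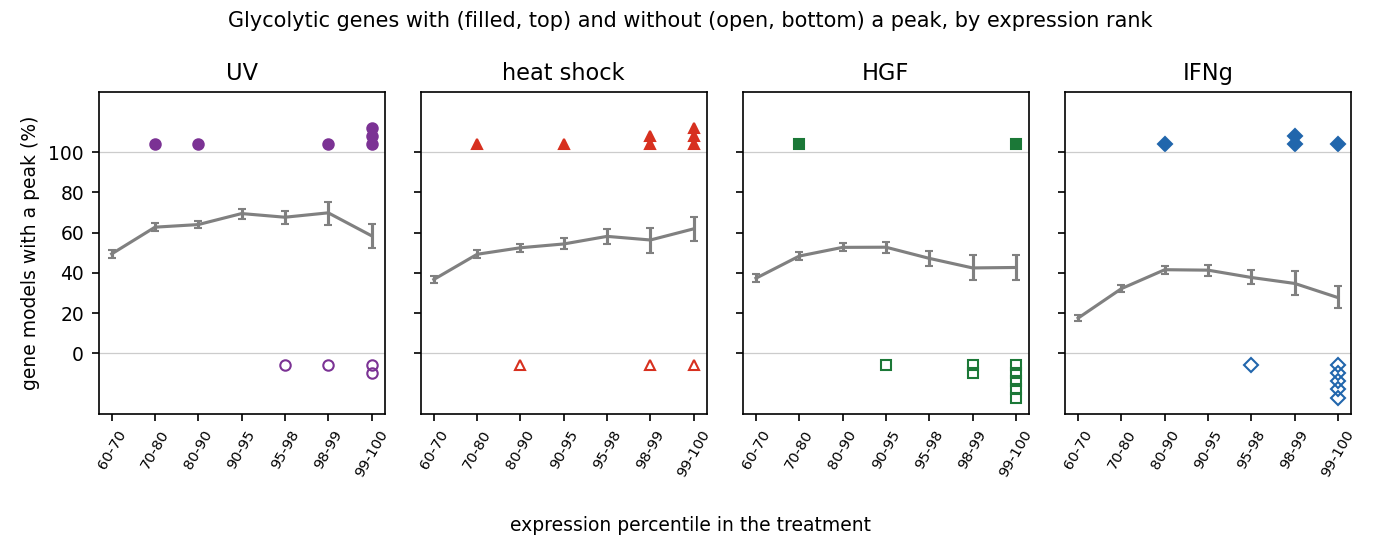
Share of all gene models with a listed peak (line, with 95% exact binomial intervals that cover counting error only) by expression percentile in each treatment. The glycolytic genes are drawn above 100% where they had a peak (filled) and under 0% where they had none (open), and their heights within those bands carry no value. After HGF, 8 of the 10 genes lie in the lower band, and after IFNg 6 do.

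HK2 and ENO1 had a peak in all 4 treatments, as 28% of the models whose mean percentile was 90 or more did. HK2, with a mean percentile of 76.7, lies outside that set, and its sites are among those counted below. GPI, TPI1, PGK1, PKM2 and LDHA had peaks in 2 treatments, HK1 in 1, and ALDOA and GAPDH in none. Peaks within 100 nt of each other were joined, which gave 21 sites. Of these sites, 14 (66.7%) were listed in 1 treatment, 5 in 2, 2 in 3 and 0 in 4. Joined the same way, 44.2% of the 4395 sites of models whose mean percentile was 90 or more, and 40.3% of all 17764 sites, were listed in 1 treatment, and 13.8% and 16.5% in 4. The 2 sites found in 3 treatments were the UTR5 site of HK2 and the TxStart site of ENO1, and both lacked a peak after IFNg. None of the 4 IFNg sites of the members was listed in another treatment. Of the 1341 IFNg sites of models whose mean percentile was 90 or more, 70.2% were. The IFNg sites of ENO1 (score 2.15) and TPI1 (2.17) scored near the lowest listed, and that of HK2 lies outside the compared set. With 4 sites, this count is not read as particular to the members. All 7 member sites found in more than 1 treatment joined UV with heat shock, as 80.5% of such sites did among those models. The score was higher after UV in 6 of the 7, and in 69.9% of the sites joining UV with heat shock among those models, so neither count is read as particular to the members.

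Scores of the members were below those of all listed peaks at the median in 3 of the 4 treatments, IFNg being the exception. The members' median was 3.78 after UV (11 peaks, range 2.03 to 5.30), against 4.07 over all listed peaks. After heat shock it was 2.67 (12 peaks, range 2.21 to 4.28), against 3.72. After HGF it was 2.62 (3 peaks, range 2.42 to 3.04), against 3.33, and after IFNg 3.26 (4 peaks, range 2.15 to 4.86), against 3.01. Over the 4 treatments 16 of the 30 member peaks (53.3%) scored under 3, against 32.2% of all listed peaks and 41.5% of the peaks of models at the 95th percentile or above. The median over peaks of models at the 95th percentile or above was 3.74 with UV, 3.65 with heat shock, 2.78 with HGF and 2.72 with IFNg. Against these the members' median was close for UV and HGF, lower for heat shock and higher for IFNg.

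**Figure D4:**
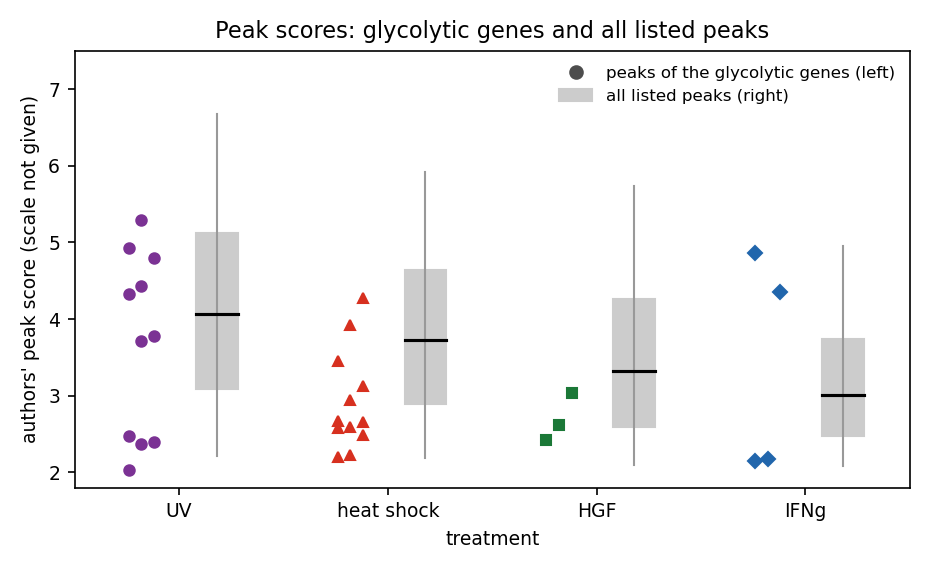
Scores of the members' peaks (coloured points, left of each pair) and of all listed peaks (grey, right: line at the median, box from the 25th to the 75th percentile, whisker from the 5th to the 95th), by treatment. No member scored above the box after heat shock or HGF, and 2 IFNg peaks, of HK2 (4.86) and PGK1 (4.35), lie above theirs.

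Most of the members' peaks lay in the first or last exon. Of the 30, 11 were in the first exon, 15 in the last and 4 in between. The shares of all listed peaks by exon were not computed, so these exon counts have no background beside them. By segment, 4 were TxStart, 8 UTR5, 2 CDS, 6 AroundStop and 10 UTR3. UTR5 peaks made up 26.7% of the members' peaks, against 2.34% of all listed peaks and 3.59% of the peaks of models at the 95th percentile or above. TxStart peaks, the neighbouring segment, made up 13.3%, against 6.52% and 19.8%. CDS peaks made up 6.67%, against 41.0% and 32.7%. The 8 UTR5 peaks belong to 3 genes, HK2, PKM2 and LDHA, and to 4 joined sites, so they are not 8 separate observations. HK2, whose first exon is 1989 nt in the deposited model and 663 nt in the matched GENCODE transcript, gave 4 of them, and without HK2 the share was 4 of 22 (18.2%). The first exon of PKM2 is 228 nt in the deposited model and 91 nt in the matched transcript. For LDHA the lengths are 202 and 249 nt. Whether a peak is labelled TxStart or UTR5 may therefore depend on the model, in these genes too. As joined sites the counts were 2 TxStart, 4 UTR5, 2 CDS, 5 AroundStop and 8 UTR3.

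**Figure D5:**
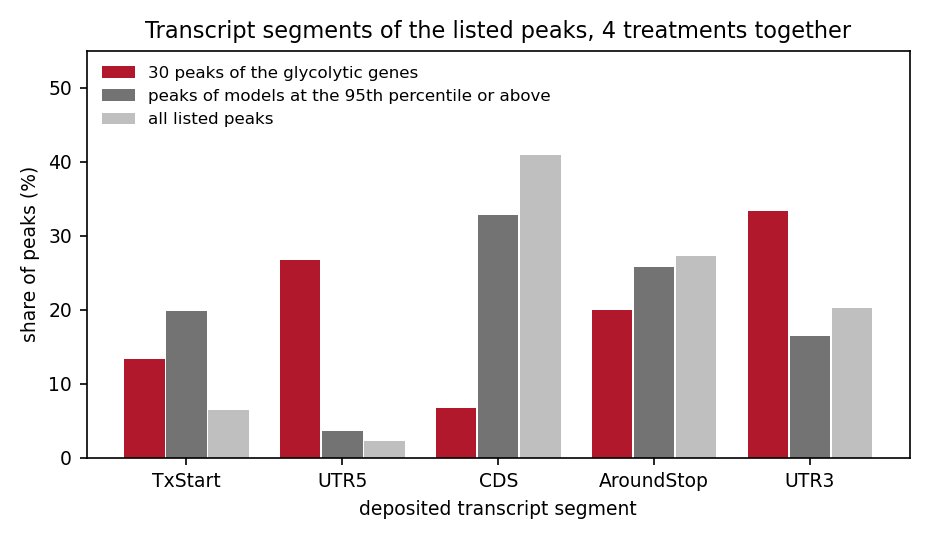
Share of peaks (bars, in percent, 4 treatments together) in each deposited segment for the 30 peaks of the glycolytic genes, for peaks of models at the 95th percentile or above and for all listed peaks. UTR5 holds 26.7%, 3.59% and 2.34%, and CDS holds 6.67%, 32.7% and 41.0%.

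The 4 lists of related genes were chosen, like the members, with earlier results of these data known. Of 23 other glycolytic isozymes and steps, 12 passed the filter, as did 12624 of all 25918 models. LDHB, the other main lactate dehydrogenase subunit, stood at 99.8 in the UV cultures, 99.9 with heat shock, 99.6 with HGF and 99.1 with IFNg, and the phosphofructokinase PFKP stood between 96.7 and 98.5. PKLR, the pyruvate kinase of liver and red blood cells, did not pass, at 45.5, 42.3, 53.7 and 56.5 in the order UV, heat shock, HGF and IFNg. PGAM1, the main phosphoglycerate mutase, did not pass either, at 45.5, 53.7, 48.9 and 49.3. The UV values of PKLR and PGAM1 were at the UV floor. Pseudogenes were not counted for LDHB, PFKP, PKLR and PGAM1, so the effect of shared reads on their ranks is unknown. These genes were named after their values had been seen.

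Among the isozymes 1 gene stood above by 10 points, GAPDHS, the sperm form of GAPDH, after UV. Of all models past the filter, 1.93% did so. GAPDHS stood at 65.9 after UV, at the floor of 32.7 after heat shock, at 54.0 after HGF and at 46.4 after IFNg. It passed the filter through its UV value alone, so the filter and the call rest on the same value. Of 19 regulators and transporters 14 passed the filter, with 1 above and 1 below, both after heat shock. Of all models past the filter, 2.87% stood above and 3.98% below after heat shock. PDK2 and PDK3, kinases that restrain pyruvate dehydrogenase, stood on opposite sides: PDK2 stood at 50.2 after heat shock, against 63.9 after UV, 85.1 after HGF and 75.4 after IFNg, and PDK3 at 74.6 after heat shock, against 62.5, 55.4 and 25.2. Of 8 gluconeogenic genes 3 passed, with 1 above after IFNg and 1 below after UV. Of all models past the filter, 3.39% stood above after IFNg and 2.17% below after UV. With so few genes in each list, these counts are not read as a result about the lists. PCK2, the mitochondrial PEP carboxykinase, stood at 92.4 after IFNg, against 55.8 with UV, 58.7 with heat shock and 78.2 with HGF. G6PC3, a ubiquitous glucose 6-phosphatase, stood at 58.9 after UV, against 71.1, 88.3 and 90.6. Of 9 pentose phosphate genes 8 passed and none stood apart, and 6 of the 8 had HGF and IFNg both above UV and heat shock, as 30.9% of all models past the filter did. Of the other lists, 2 of the 12 isozymes past the filter, 5 of the 14 regulators and transporters and 3 of the 3 gluconeogenic genes did so.

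The 5 listed genes with the most peaks were H6PD (12), SLC16A1 (10), PFKFB3 (9), SLC2A1 (9) and ADPGK (8). H6PD, an NADPH-making enzyme of the endoplasmic reticulum, had 7 of its 12 after UV and 0 after IFNg. SLC2A1, the glucose transporter GLUT1, had 2 in the UV cultures, 3 with heat shock, 2 with HGF and 2 with IFNg. SLC16A1, the monocarboxylate transporter MCT1, had 2, 4, 2 and 2. PFKFB3, which makes the activator fructose 2,6-bisphosphate, had 3, 3, 3 and 0. ADPGK, which phosphorylates glucose with ADP, had 3, 2, 2 and 1. Only HK2 among the 10 members reached 8 peaks.

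The 5 genes nearest to the members' median rank profile, by the summed absolute difference of log2 rank from the top over the 4 treatments, were RPLP2 (0.96), EIF5A (0.98), PSMC5 (0.99), APP (1.18) and HDGF (1.44). RPLP2, a ribosomal protein, and EIF5A, a translation factor, had no listed peak, and PSMC5, APP and HDGF had at least 1.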

How the data were processed

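The libraries were made from polyA+ RNA cut into pieces of about 100 nt and pulled down with an antibody to m6A, with random priming, per the labels' protocols. The deposited table gives 1 value per treatment from its IP and input libraries; the aligner, caller and genome build are not given in the sources used here. Per the file headers, expression is a quantile, a fraction from 0 to 1 that equals the rank of the model among 25918; it was multiplied by 100. The authors deposited a whole count of peaks per model, and for each peak a position, exon, segment and score.

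For shifts, percentiles below 45.5 (the largest of the 4 floors) were set to that value. Shifts are the treatment minus the median of the other 3, and calls need 10 points, or 2-fold in rank, from all other 3. Models matched GENCODE 29 transcripts by exon number, internal exon lengths and span; distances and sequences assume that the first exons share their 3′ end. GC content, from the longest GENCODE 29 transcript of a symbol, was found for 88.6% of models past the filter and all 10 members. The tools were NumPy 2.4.6, pandas 2.3.3, matplotlib 3.10.9 and SciPy 1.17.1 under Python 3.11.15, and the shift and call functions were tested on simulated data. The members, lists and thresholds were chosen with earlier results of these data known. The named genes were all members, listed genes 10 points or more from all other 3 treatments, the 5 listed genes with most peaks and the 5 nearest rank profiles. LDHB, PFKP, PKLR and PGAM1 were named outside this rule, after their values had been seen. Alternatives covered floors, GC content, re-ranking, thresholds, score minimums and joining distance. Some listed genes are not reported here.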

Additional observations from a re-analysis of the deposited data

How the results depend on the processing

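No paired analysis was possible because each treatment had 1 IP and 1 input library and the table gives 1 value for the pair. The median shifts of the members for UV, heat shock, HGF and IFNg did not move when floors were left as deposited. As log2 rank, positive towards the top, the median shifts were -0.76, -1.26, 0.96 and 0.85. With ranks recomputed among models past the filter they were -0.61, -1.29, 0.61 and 0.67 points. Corrected for GC content they reversed, to 2.24, 3.68, -2.24 and -3.88, but for genes near the top these values follow the GC bin and give no direction. Against single treatments UV was 0.31 above heat shock (a reversal), -0.30 against HGF and -0.33 against IFNg. Heat shock was -0.31 against UV, -0.63 against HGF and -0.66 against IFNg. HGF was 0.63 against heat shock and -0.052 against IFNg (a reversal). IFNg was 0.66 against heat shock and 0.052 against HGF.

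At 5 points 1 gene stood apart (HK2, IFNg), against 0 at 10 points; 19.2% of models past the filter did so for IFNg at 5 points. With scores of 3 or more, heat shock had 4 members with a peak, HGF 1 and IFNg 2. With scores of 4 or more they had 1, 0 and 2, and UV had 4. Any model of a symbol gave the main counts. Joining within 50 or 200 nt gave 21 and 20 sites; scores of 3 or 4 and more left 10 and 8, with 3 and 0 in more than 1 treatment. GC-corrected, 4 of 10 genes had HGF and IFNg both above; this and the wider window of 100 nt, which held GGAC in 15 of 27 (55.6%, against 48.0% of tiled windows), were chosen after seeing the data. The cause of these changes was not tested. Ranks carry no depth, so small shifts cannot be set against counting error.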
